A study of Mus musculus with 15 samples.

Results

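The genes followed were Tnc, Sdc1, Vcan, Has2, Cd44, Bgn, Dcn, Lum, Fn1 and Postn, 10 in all, which encode tenascin-C, syndecan-1, versican, a hyaluronan synthase, the hyaluronan receptor CD44, biglycan, decorin, lumican, fibronectin and periostin. They were chosen by name, with earlier results of these data known. All 10 had a row among the 12089 rows of the expression table, each as 1 Ensembl transcript identifier, and all 10 passed the filter on low values. mDMCs (mouse dental mesenchymal cells) came from first molar germs of the lower jaw of ICR embryos at embryonic day 14.5. The mesenchyme was freed from the epithelium with dispase and made into single cells with trypsin. RNA was sequenced from freshly isolated mDMCs (0 h, 3 libraries), from mDMCs grown as a monolayer in medium with fetal bovine serum for 12 h (2 libraries), 24 h, 36 h and 48 h (3 libraries each), and from dental mesenchymal tissue (1 library). The labels name no genetic change in any group, and no agent was added other than the serum medium, which also held penicillin and streptomycin. The labels do not say whether the replicates were separate cultures or litters, so the p-values measure the spread between these libraries, which may be technical.

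The condensed dental mesenchyme is rich in tenascin-C and syndecan-1, and both are classical markers of the mesenchyme that has received signals from the dental epithelium. Versican is a large proteoglycan that binds hyaluronan, the sugar chain that Has2 extrudes at the cell surface and that CD44 binds. Decorin, lumican and biglycan are small leucine-rich proteoglycans that bind collagen fibrils. Fibronectin and periostin are adhesive matrix glycoproteins, and cells in serum culture spread on fibronectin through integrins.

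Promoter sequences from RefSeq (GRCm38.p6, from 250 bases before to 50 bases after a start site) were matched for 6 of the 10 genes. Shown are those of Tnc, Sdc1 and Vcan, lower than at 0 h at each of the 4 culture times, and of Cd44, higher at each, so that their sequence can be read beside the values that follow. Capitals mark the matches to the motifs searched on both strands. These were the TATA box TATAAA, the GC box GGGCGG, the AP-1 element TGANTCA, the TEAD element CATTCC and the CArG box.
Tnc, chr4:64046966-64047265, minus strand: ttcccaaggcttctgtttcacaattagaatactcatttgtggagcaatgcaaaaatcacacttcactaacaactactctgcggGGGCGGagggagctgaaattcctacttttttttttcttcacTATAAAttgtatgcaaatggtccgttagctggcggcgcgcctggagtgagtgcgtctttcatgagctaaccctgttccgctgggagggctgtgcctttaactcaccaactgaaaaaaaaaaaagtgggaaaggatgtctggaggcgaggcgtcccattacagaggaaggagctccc
Sdc1, chr12:8771146-8771445, plus strand: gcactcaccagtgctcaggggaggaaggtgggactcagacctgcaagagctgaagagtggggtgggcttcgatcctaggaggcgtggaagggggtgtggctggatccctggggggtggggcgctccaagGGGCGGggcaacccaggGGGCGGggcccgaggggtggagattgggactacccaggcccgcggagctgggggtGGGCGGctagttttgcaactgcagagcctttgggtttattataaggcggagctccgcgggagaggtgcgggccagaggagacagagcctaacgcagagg
Vcan, chr13:89742463-89742762, minus strand: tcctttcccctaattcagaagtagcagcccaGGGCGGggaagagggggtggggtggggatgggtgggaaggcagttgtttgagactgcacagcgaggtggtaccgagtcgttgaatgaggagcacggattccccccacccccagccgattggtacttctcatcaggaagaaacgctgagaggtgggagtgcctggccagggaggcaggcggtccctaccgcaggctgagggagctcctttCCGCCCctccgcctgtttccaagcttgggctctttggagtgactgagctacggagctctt
Cd44, chr2:102901616-102901915, minus strand: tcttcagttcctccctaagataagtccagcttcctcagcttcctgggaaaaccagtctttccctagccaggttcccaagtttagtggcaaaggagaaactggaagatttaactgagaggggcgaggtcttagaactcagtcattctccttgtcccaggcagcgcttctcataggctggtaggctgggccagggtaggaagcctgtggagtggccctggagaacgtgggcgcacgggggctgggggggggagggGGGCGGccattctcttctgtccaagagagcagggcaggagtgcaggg

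The GC box was found in each of these 4 windows, with 3 matches in Sdc1, and 35.7% of the 32851 promoter windows of the table hold it. Bgn had 3 matches as well, 2 of them overlapping. TATAAA was found in the Tnc window shown, 126 bases before the start site, and in a window of Postn, 26 bases before the start site. It occurs in 13.6% of all windows. Another Tnc window, with a start site further downstream and not shown, holds the same TATAAA 205 bases before that site. The other motifs (TGANTCA in 7.81% of windows, CATTCC in 14.7% and the CArG box in 1.63%) had no match in the windows of the 6 genes. The GC content was 47.3% in the Tnc window shown, 54% in the other Tnc window and 66.3% in that of Sdc1, against a median of 52.7% over all windows. The Tnc transcript of the table starts 26290 bases downstream of the start site shown, whereas those of Vcan and Cd44 start 190 and 40 bases downstream. A match is a description of the letters and not of a bound site.

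The deposited values are whole-number expression scores on a normalized scale, not read counts. All 15 libraries had the same median score of 721 and the same largest score of 127101, and library totals differed by at most 0.039%. A score was thus set by rank, the depth of the libraries is unknown, and the levels of the 10 genes are not compared with one another, since the scale is not known to be per transcript length. Marker sums are sums of these scores and describe a list within 1 scale. Near the top of the scale the scores came in blocks of 10 rows that lay within 0.493% of each other, so that highly expressed genes moved in coarse steps. Markers of dental mesenchyme (7 of 7 with a row) had a summed score of 38914 to 43578 at 0 h and of 13880 to 18127 at 48 h. The largest part of this fall came from Pdgfra, at 16448 in all 0 h libraries and 2485 to 2608 at 48 h. Msx1 went only from 5030 to 5473 at 0 h to 3238 to 3770 at 48 h. Dlx1 overlapped, with 3770 to 4750 at 0 h and 2294 to 4892 at 48 h. Of the other cell types, endothelial markers (7 of 7) went from 8285 to 10033 at 0 h to 636 to 974 at 48 h, with Cldn5 listed at 0 in all 48 h libraries, and red cell markers (5 of 6) from 79096 to 131256 down to 41 to 151. Leukocyte markers (3 of 7) went from 733 to 978 at 0 h to 247 to 313 at 48 h. Epithelial markers (8 of 10) summed to 14067 in replicate 1 of 0 h, and to 1514 and 1883 in the other 0 h libraries. The sum of muscle and pericyte markers (6 of 7) was 4499 to 4922 at 0 h and 258096 to 259067 at 48 h, nearly all of it from Acta2 and Tagln, each at the largest score of 127101 in all cultured libraries, and of the pericyte markers Rgs5 was at 1908 to 2515 at 0 h and 131 to 170 at 48 h, and Cspg4 at 1170 to 1360 at 0 h and 3485 to 4217 at 48 h. The part of these cell types in the results below was not tested. In bulk samples, fewer cells of a type and less RNA per cell cannot be told apart.

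At 48 h, 6 of the 10 genes were lower than at 0 h (Tnc, Sdc1, Vcan, Has2, Dcn and Lum), 2 were higher (Cd44 and Bgn) and 2 were not called (Fn1 and Postn). A gene was called at a Benjamini-Hochberg adjusted p below 0.05 in limma over the 12079 rows tested. Of all rows, 71.2% were called at 48 h, 34% lower and 37.1% higher, so a count of 8 called among 10 genes is near the background. The median log2 change of the 10 genes was −1.04, and that of all rows was 0.031. Since the genes were chosen with earlier results of these data known, this difference is a description only. After 12 h of culture, 6 genes were lower (28.3% of all rows) and 2 higher (29.9% of all rows), with 58.2% of all rows called in either direction. At 24 h, 7 were lower (31.8% of all rows) and 1 higher (35% of all rows), against 66.9% in either direction. For 36 h the counts were 7 lower (34% of all rows) and 2 higher (36% of all rows), against 70% in either direction. These 4 comparisons share the 0 h libraries. The study's own threshold asks for more than a 2-fold change with p below 0.05 in DESeq2, and the paper does not say whether p was adjusted. Here the threshold was applied to the limma p before adjustment, so the counts are not those of the study's own fit. It was passed at 48 h by 8 genes set against 0 h (32.1% of all rows), by 2 genes set against 12 h (13.5% of all rows) and by 0 genes set against 24 h (5.05% of all rows). Against 0 h it was passed by 7 genes at 12 h (24.3% of all rows), 7 genes at 24 h (28% of all rows) and 6 genes at 36 h (31.1% of all rows), where Sdc1, Postn and Bgn changed by less than 2-fold. No gene passed it at 24 h set against 12 h (3.68% of all rows) or at 36 h set against 24 h (4.17% of all rows).

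**Figure D1:**
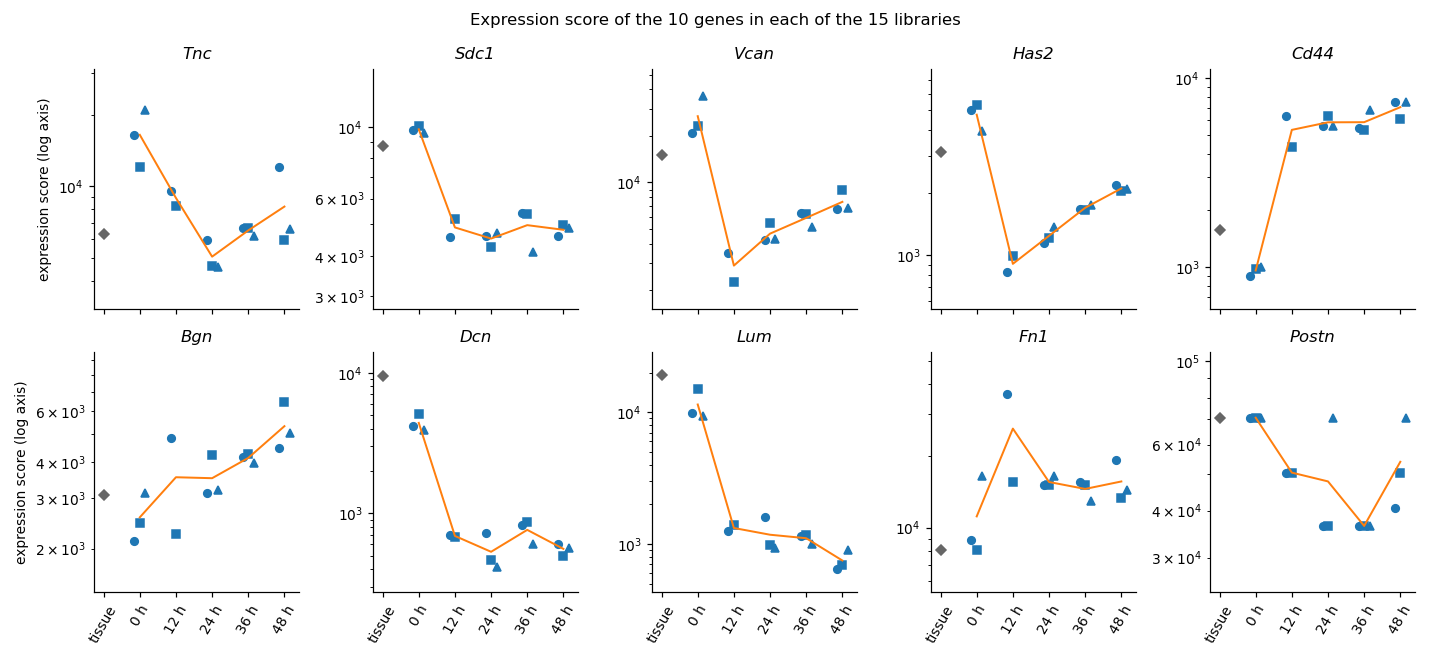
Expression score of each gene (log axis, scaled per panel) in the tissue library (grey diamond) and in mDMCs at 0 to 48 h (circles, squares and triangles are replicates 1, 2 and 3; the line joins the means of the time points). Vcan and Has2 drop at 12 h and lie higher again at 48 h, Dcn and Lum stay low after 12 h, and Cd44 stays high.

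Versican and the hyaluronan synthase Has2 fell steeply within 12 h and then regained part of the loss. The Vcan score (chromosome 13 of GRCm38, transcript from 89656340 to 89742322, minus strand, 14 exons) was 20924, 23247 and 36428 at 0 h, and 3520 and 2275 at 12 h. It was 4229, 5487 and 4281 at 24 h, 6335, 6211 and 5165 at 36 h and then 6704, 8961 and 6818 at 48 h. Every cultured library lay below every 0 h library, and the 3 libraries at 48 h lay above both libraries at 12 h. The fall at 12 h was 9.21-fold (log2 change −3.20, SE 0.24, limma adjusted p = 2.7e-07), and 1.53% of all rows had a larger one. At 48 h Vcan was 3.51-fold below 0 h (log2 change −1.81, SE 0.21, limma adjusted p = 6.9e-06).

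The Has2 score (chromosome 15, from 56665627 to 56694539, minus strand, 4 exons) was 5002, 5285 and 3969 at 0 h. It was 825 and 991 at 12 h, 1147, 1209 and 1362 at 24 h, 1677, 1658 and 1739 at 36 h and then 2180, 2031 and 2079 at 48 h. The libraries of successive culture times did not overlap. The fall at 12 h was 5.21-fold (log2 change −2.38, SE 0.12, limma adjusted p = 1.1e-08), and at 48 h Has2 was still 2.25-fold below 0 h (log2 change −1.17, SE 0.11, adjusted p = 7.6e-07).

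From 12 h to 48 h, a comparison chosen after the values were seen, Has2 rose 2.32-fold (limma adjusted p = 1.3e-05) and Vcan 2.62-fold (adjusted p = 0.00067), while 21.2% of all rows were called higher, 21% lower and 42.2% in either direction. On the log2 scale this was 50.9% of the earlier fall of Has2 and 43.4% of that of Vcan. Within the culture, Has2 was the only one of the 10 genes called between 12 h and 24 h (log2 change 0.45, limma adjusted p = 0.04, with 8.25% of all rows called, 4.59% of all rows being higher) and between 24 h and 36 h (0.45, adjusted p = 0.0143, with 19.7% of all rows called, 10% being higher). The first of these calls was lost in 6 of 13 alternatives (the replicate block, no intensity trend, only the compared times, and without 12 h replicate 1 or 24 h replicate 2 or 3), with an adjusted p of up to 0.347, and without 12 h replicate 2 Fn1 was called as well (adjusted p = 0.0375). The second was at an adjusted p of 0.0501 without 24 h replicate 2, and with the replicate number as a block Dcn was called higher at 36 h as well (log2 change 0.54, adjusted p = 0.0406). When only these 24 h and 36 h libraries were fitted, Tnc was called higher at 36 h too (limma adjusted p = 0.0451). Between 24 h and 48 h, compared because the study asked when mDMCs in culture stop being able to form teeth, Has2 rose by 0.76 (limma adjusted p = 0.00052) and Vcan by 0.68 (adjusted p = 0.0368) on the log2 scale, and none of the 10 genes was called lower (23.8% of all rows called, 12.2% being higher). Without replicate 3 of 24 h or of 48 h, Lum was called lower between these times, with an adjusted p from 0.0408. With the replicate number as a block, the Vcan change was not called (0.68, limma adjusted p = 0.0538) and that of Tnc was (0.64, adjusted p = 0.0445), so the count was 2 with and without the block, with a different second gene. In a fit of only the compared times Bgn was called as well (adjusted p = 0.0497). The Vcan call was also lost without 24 h replicate 1 or 3 and without any one of the 48 h replicates, with an adjusted p of up to 0.128. Between 36 h and 48 h none of the 10 genes was called by limma, 4 had an unadjusted p below 0.05, and 0.0248% of all rows were called, with 13.4% at an unadjusted p below 0.05.

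Cd44, the receptor that binds hyaluronan, moved the opposite way. Its score (chromosome 2, from 102811141 to 102901625, minus strand, 19 exons) was 904, 983 and 1004 at 0 h and 6326 and 4347 at 12 h. It was 5614, 6326 and 5614 at 24 h, 5430, 5340 and 6810 at 36 h and then 7504, 6092 and 7504 at 48 h. All 11 libraries of cultured mDMCs lay above the whole 0 h range. The rise was 5.44-fold at 12 h (log2 change 2.44, SE 0.16, limma adjusted p = 8.3e-08) and 7.27-fold at 48 h (log2 change 2.86, SE 0.14, adjusted p = 2.3e-09), and 3.33% of all rows had a larger rise at 48 h. Leukocytes also carry CD44. The leukocyte markers (3 of 7) summed to 733 to 978 at 0 h and 247 to 313 at 48 h, and the part of these cells in the Cd44 values was not tested. After 12 h the change was small: from 12 h to 48 h it was 0.42 on the log2 scale (limma adjusted p = 0.0478), and this call was lost in 7 of 13 alternatives (trimmed-mean scaling, the replicate block, no intensity trend, only the compared times, and without 12 h replicate 2 or 48 h replicate 1 or 3), with an adjusted p of up to 0.494.

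The small leucine-rich proteoglycans divided. Decorin and lumican fell several-fold by 12 h and stayed low, whereas biglycan was higher at 36 h and 48 h. The genes of decorin and lumican are neighbours on chromosome 10, with transcripts from 97479609 to 97518143 (8 exons) and from 97565128 to 97572703 (3 exons) on the plus strand, 47 kb apart. Lum was at 9812, 15128 and 9424 at 0 h and at 1244 and 1400 at 12 h. It was at 1610, 985 and 931 at 24 h, 1145, 1173 and 999 at 36 h and then 647, 696 and 904 at 48 h. No cultured library came near the 0 h libraries, and the 48 h libraries were below all earlier ones. The fall was 8.47-fold at 12 h (log2 change −3.08, SE 0.24, limma adjusted p = 4e-07) and 15.1-fold at 48 h (log2 change −3.91, SE 0.22, adjusted p = 7.3e-09), a change that 1.8% of all rows exceeded. From 12 h to 48 h Lum fell by 0.83 on the log2 scale (limma adjusted p = 0.0155). This last call was lost without either 12 h replicate and without 48 h replicate 1, with an adjusted p of up to 0.0839.

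The Dcn score was 4150, 5121 and 3914 at 0 h and 696 and 682 at 12 h. It was 718, 464 and 412 at 24 h, 819, 859 and 605 at 36 h and then 605, 499 and 569 at 48 h. The cultured libraries were all below those at 0 h, and the culture times overlapped one another except that the 48 h libraries were below those at 12 h. Dcn fell 6.33-fold by 12 h (log2 change −2.66, SE 0.21, limma adjusted p = 4.8e-07) and was 7.84-fold below 0 h at 48 h (log2 change −2.97, SE 0.19, adjusted p = 2.8e-08). None of the comparisons between culture times was called for Dcn, although without 24 h replicate 1 the 24 h level was called below both 12 h and 36 h, and without 36 h replicate 3 below 36 h. With the replicate number as a block, the 24 h level was also called below 36 h (log2 change 0.54, limma adjusted p = 0.0406). Kera, which encodes keratocan and lies 34.2 kb beyond Lum, had scores of 106, 105 and 49 at 0 h. At 48 h it was listed at 0 in replicates 2 and 3 and was at 3 in replicate 1 (log2 change −5.70, limma adjusted p = 2.5e-05). A fitted change of a gene this low depends on the added constant of 1.

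Bgn (chromosome X, transcript from 73483602 to 73492746, plus strand, 6 exons) was at 2121, 2459 and 3123 at 0 h and at 4476, 6427 and 5044 at 48 h. The 48 h libraries were all above those at 0 h, 2.07-fold on average (log2 change 1.05, SE 0.24, limma adjusted p = 0.00159). At 36 h, with 4150, 4255 and 3971, Bgn was 1.63-fold higher (adjusted p = 0.0191), a call lost without 0 h replicate 1 (adjusted p = 0.0747). The 12 h libraries, at 4824 and 2248, lay on either side of most 0 h values, and the log2 change of 0.38 was not called (limma adjusted p = 0.247). Without 12 h replicate 2 it was called, at 0.93 (adjusted p = 0.00629), and without 12 h replicate 1 it was −0.17. Leaving out a 12 h replicate leaves 1 library at that time, here and for the other genes, and that library is assumed to vary like those of the other times. The identifier listed for Bgn, like that of Sdc1, is annotated as a processed transcript and not as a coding one, so the isoform behind the score is uncertain.

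**Figure D2:**
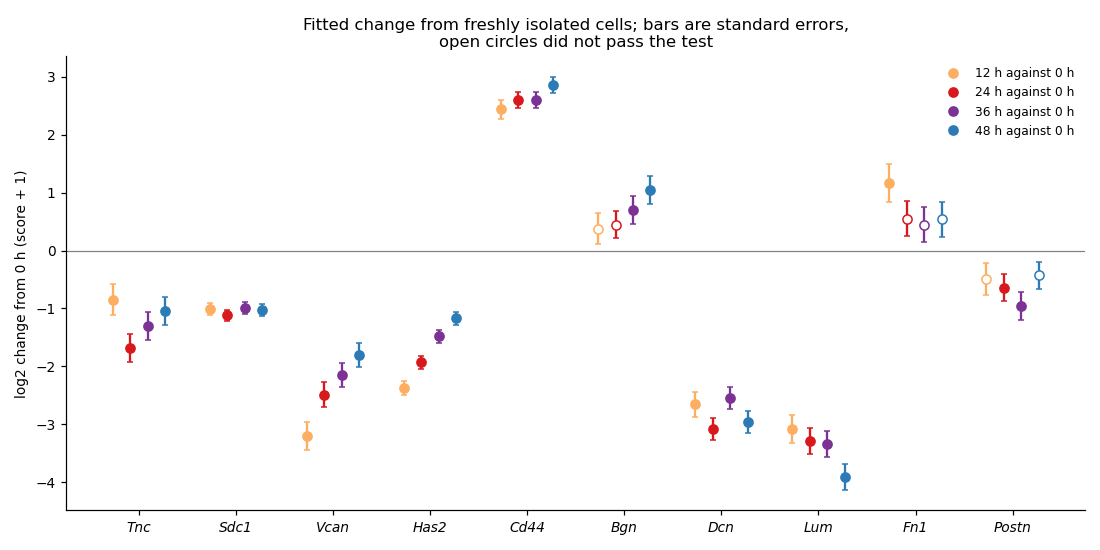
Fitted log2 change of each gene from 0 h at 12, 24, 36 and 48 h, with the standard error as bars; filled circles had an adjusted p below 0.05. The changes of Sdc1 lie between −0.99 and −1.12 at all 4 times, whereas those of Vcan and Has2 grow smaller with time in culture.

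Syndecan-1, a cell-surface heparan sulfate proteoglycan, was reduced to about the same level at all culture times. The Sdc1 score (chromosome 12, from 8771803 to 8790448, plus strand, 4 exons) was 9792, 10081 and 9591 at 0 h and 4573 and 5208 at 12 h. It was 4610, 4247 and 4697 at 24 h, 5423, 5380 and 4108 at 36 h and then 4610, 4959 and 4858 at 48 h. The 0 h libraries stood apart from all cultured libraries, which overlapped one another. The change was −1.01 on the log2 scale at 12 h (SE 0.11, limma adjusted p = 9.9e-06), −1.12 at 24 h (SE 0.10, adjusted p = 8.3e-07), −0.99 at 36 h (SE 0.10, adjusted p = 2.1e-06) and −1.03 at 48 h (SE 0.10, adjusted p = 1.4e-06). From 12 h to 48 h the difference was −0.02 with a standard error of 0.11.

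Epithelial cells also carry syndecan-1. The 0 h replicate 1, whose epithelial marker sum of 14067 was the highest of all libraries, had an Sdc1 score between those of the other 0 h libraries, whose sums were 1514 and 1883. The sums were 2339 and 2732 at 12 h and 370 to 1229 at 48 h. Without 0 h replicate 1, Sdc1 was called lower at all 4 culture times. The part of epithelial cells in the Sdc1 values was not tested.

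**Figure D3:**
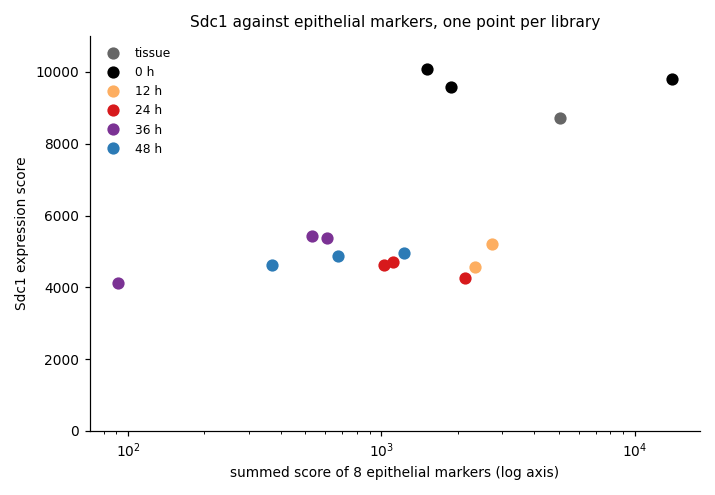
Sdc1 expression score (linear axis from 0) against the summed score of 8 epithelial markers (log axis), 1 point per library, coloured by time. The 3 libraries at 0 h have Sdc1 scores of 9591 to 10081 and marker sums of 1514 to 14067, and the cultured libraries have Sdc1 scores of 4108 to 5423 and marker sums of 91 to 2732.

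Tenascin-C was highest at 0 h and lowest at 24 h. The Tnc score (chromosome 4, from 63959785 to 64020725, minus strand, 25 exons) was 16457, 12034 and 20818 at 0 h, 9574 and 8259 at 12 h and then 5959, 4634 and 4562 at 24 h. It was 6681, 6681 and 6173 at 36 h and then 12034, 5959 and 6617 at 48 h. The 0 h libraries lay above those at 12, 24 and 36 h, and 48 h replicate 1 equalled the lowest 0 h library. Such equal scores, as with 6681 at 36 h, can be steps of the scale, so the replicate spread of Tnc may be understated. Tnc was 3.2-fold below 0 h at 24 h (log2 change −1.68, SE 0.24, limma adjusted p = 4.6e-05) and 2.06-fold below at 48 h (log2 change −1.04, SE 0.24, adjusted p = 0.00182). The smaller fall at 12 h (−0.85, limma adjusted p = 0.0161) was not called without 0 h replicate 3 (adjusted p = 0.0578) or without 12 h replicate 2 (adjusted p = 0.0978). The log2 difference of 0.64 between 24 h and 48 h did not pass (limma adjusted p = 0.0738). It was called without 48 h replicate 2 and when replicate number was added as a block (adjusted p = 0.0445), and over the alternatives it ranged from 0.32 to 0.83 with an adjusted p from 0.039 to 0.277.

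Fibronectin had the largest standard errors of the 10 genes. The Fn1 score (chromosome 1, from 71585520 to 71653172, minus strand, 45 exons) was 8916, 8066 and 16457 at 0 h, 36335 and 15579 at 12 h, 15054, 15054 and 16457 at 24 h, 15579, 15054 and 12923 at 36 h and then 19215, 13266 and 14325 at 48 h. The groups overlapped at every time, because 0 h replicate 3 was at or above most cultured libraries. Fn1 rose at 12 h (log2 change 1.17, SE 0.33, limma adjusted p = 0.00871), but without 12 h replicate 1 the change was 0.56 (adjusted p = 0.172), and in a fit of only the compared times the call was lost as well (adjusted p = 0.0744). The changes at 24, 36 and 48 h (0.55, 0.45 and 0.54) were not called, and without 0 h replicate 3 all of them were, with adjusted p of 0.0148, 0.0253 and 0.0146.

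Periostin lay among the highest rows of every library, between places 12 and 42 from the top. The Postn score (chromosome 3, from 54361109 to 54391037, plus strand, 22 exons) was 70714 in all 0 h libraries and 50508 in both 12 h libraries. It was 36428, 36428 and 70714 at 24 h, 36428 in all 36 h libraries, and 40684, 50508 and 70714 at 48 h. These equal values are steps of the scale, so the replicate spread is understated and a change of 1 step carries little weight. Postn was lower at 24 h (log2 change −0.64, limma adjusted p = 0.0319) and at 36 h (−0.96, adjusted p = 0.00315) and was not called at 48 h (−0.43, adjusted p = 0.128). The 24 h call was lost in a fit of only the compared times, without any one of the 0 h replicates and without 24 h replicate 1 or 2 (adjusted p up to 0.132), and at 48 h Postn was called without 48 h replicate 3 (adjusted p = 0.0342). At 12 h the change of −0.49 was not called (limma adjusted p = 0.139) but passed in a fit of only the compared times (adjusted p = 0.0052).

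The tissue library, which has no replicate and was in no test, lay above all 0 h libraries in 3 of the 10 genes, below them in 4 and within their range in 3. Dcn was at 9424 in the tissue, above all 0 h libraries and 2.16-fold above their mean on the log scale, and Lum was at 19261, 1.72-fold above. Cd44, at 1571, was 1.63-fold above. Tnc, at 6290, was 2.55-fold below the 0 h mean and within the range of the cultured libraries. Vcan (15128), Has2 (3158) and Sdc1 (8729) were also below all 0 h libraries, and Bgn, Fn1 and Postn were within their range. Of all rows, 29.7% were above and 32% below all 0 h libraries, and 3.8% differed from the 0 h mean by more than 2-fold. In the tissue, markers of cartilage and bone summed to 20212, against 3612 to 5716 at 0 h. Most of this difference came from Ibsp, which encodes bone sialoprotein, at 16538 against 657 to 2114. Sox9 (187) and Sp7 (765) were within their 0 h ranges, and Col2a1 (2711) and Acan (11) were a little above theirs. The part of cartilage and bone cells in the Dcn and Lum difference was not tested.

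In most of the wider families of these genes some members were higher and others lower at 48 h. Of the 4 syndecans, Sdc1 was lower at 48 h, Sdc2 (log2 change 1.09, limma adjusted p = 8e-06) and Sdc4 (1.24, adjusted p = 3e-05) were higher, and Sdc3 was not called (−0.11, adjusted p = 0.669). Sdc4, a syndecan of focal adhesions, was at 2484, 2603 and 2444 at 0 h and at 7052, 4515 and 6487 at 48 h. Gpc3, a glypican that is abundant in embryonic mesenchyme, went from 20919, 25064 and 28872 to 5677, 4228 and 5081 (−2.32, adjusted p = 2.1e-06), and Gpc6 changed by −1.83 (adjusted p = 0.00022). Over the syndecans and glypicans other than Sdc1, 3 of 8 tested genes were higher and 3 lower at 48 h, with a median log2 change of 0.23 against 0.031 for all rows. Over all rows 37.1% were called higher and 34% lower at 48 h, and the counts of this and the following lists are to be read against these shares. Sdc2, Sdc3, Hspg2 and Tnn were named after their values were seen.

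Tnn, which encodes tenascin-W, rose while Tnc fell. Its score was 1522, 1112 and 1367 at 0 h, had reached 8916, 9774 and 9384 at 24 h and was 4125, 6910 and 8707 at 48 h (log2 change 2.25, SE 0.22, limma adjusted p = 1.1e-06). Among tenascins and matricellular proteins outside the 10 genes, 8 of 14 tested were higher (37.1% of all rows) and 5 lower (34% of all rows), with a median of 0.68. The largest changes were those of Thbs1, which encodes thrombospondin-1 (log2 change 4.07), Ccn2, a matricellular growth factor (3.80), and Fbln1, which encodes fibulin-1 (−2.68). Thbs1 went from 4290, 4048 and 4238 at 0 h to 70508 in all 48 h libraries, a value near the top of the scale.

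The genes that handle hyaluronan showed changes of different sign. Outside Has2 and Cd44, 6 of 10 tested genes were higher (37.1% of all rows) and 3 lower (34% of all rows) at 48 h, with a median of 0.47. Cemip, which encodes a protein needed for hyaluronan breakdown, was at 73, 65 and 56 at 0 h and at 7565, 6169 and 5462 at 48 h (log2 change 6.60, SE 0.17, limma adjusted p = 1.3e-11). It had already reached 6473 in both 12 h libraries. Cemip2, a related gene, fell from 5066 in all 0 h libraries to 1238, 1599 and 1696 (−1.76, adjusted p = 6e-08). Stab1, a scavenger receptor for hyaluronan found on endothelium and macrophages, fell by 5.36 on the log2 scale (limma adjusted p = 8.8e-07). It was at 1224 to 1729 at 0 h and at 97 and 99 at 12 h. From 0 h to 12 h the endothelial marker sum went from 8285 to 10033 down to 896 to 959. The leukocyte sum went from 733 to 978 down to 511 to 565. The part of these cells in the Stab1 values was not tested.

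Among the large proteoglycans beside versican, 2 of 4 tested genes were higher and 2 lower at 48 h. Acan, which encodes aggrecan, was at 3, 7 and 7 at 0 h and at 1305, 947 and 572 at 48 h (log2 change 7.13, SE 0.31, limma adjusted p = 8.5e-10). At 12 h, when Vcan was lowest, it was at 1582 and 1027. With 0 h scores this low the size of the change depends on the added constant. Agrn (−2.09, adjusted p = 5.1e-08) and Col18a1 (−2.50, adjusted p = 1.3e-07), both of basement membranes, were lower, and Hspg2, which encodes the basement membrane proteoglycan perlecan, was higher (0.93, adjusted p = 0.00253). Of the small leucine-rich proteoglycans other than Bgn, Dcn and Lum, 0 of 8 were higher (37.1% of all rows) and 4 lower (34% of all rows), with Aspn (−1.11, adjusted p = 0.015) and Ogn (−0.67, adjusted p = 0.0207) next to Kera, and a median of −0.50.

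**Figure D4:**
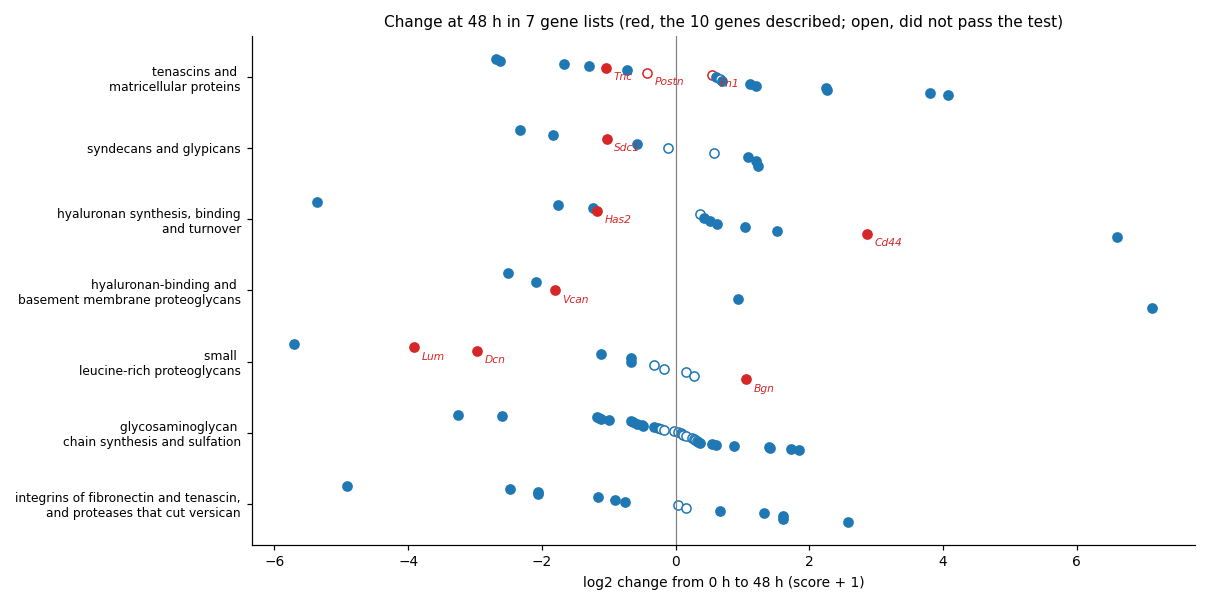
Log2 change from 0 h to 48 h of every tested gene in 7 lists of matrix, proteoglycan and receptor genes, 1 point per gene; red points are the 10 genes described, and open points had an adjusted p of 0.05 or more. Each list holds called genes on both sides of 0.

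The genes whose pattern was most like that of each member were found by Pearson's r of the log2 scores over the 15 libraries, as a description. The libraries share the difference between uncultured and cultured samples, which raises all such values. The closest row was Masp1 for Cd44 (r = 0.990), Pccb for Lum (0.991), F13a1 for Dcn (0.989), Evi5l for Sdc1 (0.986), Fzd10 for Has2 (0.977), Myo6 for Vcan (0.967), Ptpn23 for Fn1 (0.960), Gigyf1 for Tnc (0.912), Aldh1a3 for Postn (0.898) and Atp6v0c for Bgn (0.884). Among the 10 genes themselves, Dcn and Lum were the closest pair (r = 0.98), followed by Sdc1 with Dcn (0.944), and Vcan was closest to Has2 (0.938). Cd44 ran opposite to Sdc1 (−0.979). Tnc and Fn1 were nearly unrelated (−0.048).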

How the data were processed

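RNA-seq of 15 libraries was used, and groups were taken from the sample labels. The authors trimmed reads, mapped them to the mouse transcriptome (mm10, Ensembl v73) with bowtie and estimated expression with RSEM, version 1.1.21 in the submitters' processing notes. The paper's methods give another RSEM version. The authors deposited 1 table of whole-number expression scores under the name cpm. Library totals of 21357605 to 21365980 and shared quantiles show neither cpm nor counts, and the step that equalised the libraries is not given in the sources used here. Of 12089 transcript identifiers, 11973 were matched to genes of GENCODE M21 (GRCm38, the build of mm10).

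Scores were analysed as log2(score + 1). The 14 mDMC libraries were modelled by time point in limma 3.58.1 under R 4.3.3, using an intensity trend, over the 12079 rows with at least 1 ppm of the total in at least 2 libraries. Tests were two-sided with Benjamini-Hochberg adjustment over all rows. A count test, foreseen only for a table of counts, was not run. The fitting step was checked on simulated scores. Tables and plots used Python 3.11.15, numpy 2.4.6, pandas 2.3.3 and matplotlib 3.10.9.

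The 10 genes and the gene lists, written from general knowledge, were chosen with earlier results of these data known. All 10 genes are named. From each list up to 3 other genes are named, those with the largest called change at 48 h without overlap of the libraries, and for each of the 10 genes the rows most like it. In the list of glycosaminoglycan synthesis and that of integrins and proteases, given in the closing part, the same rule was used. Alternatives were pseudocounts of 0.1 and 10, other filters, trimmed-mean scaling, only the compared times, a replicate block, no trend, the study's threshold and each replicate left out. Same-numbered libraries deviated together (every correlation of deviations above 0.1) between 24 h and 36 h (0.127 to 0.165) and between 24 h and 48 h (0.201 to 0.318), a hint from the data and not the labels, and not in the other pairs of times, so blocked values stand beside results of these comparisons where the call changed. The 36 h replicates 1 and 2 were the closest pair (root mean square log2 difference 0.29, against 0.35 to 0.55 elsewhere), and averaging them was an alternative added after the data were seen, as was the comparison of 48 h with 12 h.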

Additional observations from a re-analysis of the deposited data

How the results depend on the processing

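Of the 33 calls of the 10 genes against 0 h, 29 passed under every alternative that kept the adjusted p as threshold, 4 were lost under some and 0 changed sign. Of the 8 calls between culture times, 3 passed under every such alternative. With each compared replicate left out in turn, the number of genes called ranged from 7 to 8 at 12 h and at 24 h, 8 to 10 at 36 h and 8 to 9 at 48 h against 0 h. Between culture times it ranged from 0 to 2 for 24 h set against 12 h and likewise for 36 h set against 24 h, was 0 for 48 h set against 36 h, and ranged from 1 to 2 for 48 h set against 24 h and from 2 to 4 when set against 12 h. By the study's threshold the calls against 0 h went from 9 to 6 at 36 h, 0 genes passed at 24 h set against 12 h, 0 genes at 36 h or 48 h set against 24 h, and 2 genes at 48 h set against 12 h. The replicate block, beside its effect on Tnc, Vcan and Dcn already given, gave 0 genes between 12 h and 24 h and 2 between 24 h and 36 h. Under it Cd44 was not called between 12 h and 48 h (limma adjusted p = 0.072), and no other call of the 10 genes changed. Without the intensity trend the count between 12 h and 24 h was 0. With the compared times only, it was 0 for 24 h set against 12 h, 2 for 36 h set against 24 h and 3 for 48 h set against 24 h. The log2 change of Bgn at 12 h was −0.17 without 12 h replicate 1 and 0.93 without 12 h replicate 2. The cause of these shifts was not tested, apart from the fewer libraries in some fits. The depth of the libraries is unknown, and steps at the top of the scale limit Postn, Fn1 and the 0 h scores of Vcan. Equal scores also recur lower on the scale. Tnc was at 12034 in 0 h replicate 2 and 48 h replicate 1, and Cd44 at 7504 in 48 h replicates 1 and 3. The replicate spread of these genes may thus be understated as well.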

Other observations

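Genes that build and sulfate glycosaminoglycan chains moved both ways. Of 34 tested, 9 were higher (37.1% of all rows) and 13 lower (34% of all rows) at 48 h than at 0 h, with a median log2 change of 0.06 against 0.031 for all rows. Csgalnact1, an enzyme that starts chondroitin sulfate chains, was at 647, 836 and 580 at 0 h and at 73, 65 and 74 at 48 h (log2 change −3.25, SE 0.17, limma adjusted p = 3.4e-09), and it was already at 40 and 51 at 12 h. Chst3, a chondroitin sulfotransferase, fell by 2.59 (adjusted p = 3.5e-07), and Chst12, another one, rose by 1.84 (adjusted p = 4.5e-06) on the log2 scale.

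Of 14 tested genes for integrins of fibronectin and tenascin and for proteases that cut versican, 5 were higher (37.1% of all rows) and 7 lower (34% of all rows) at 48 h, with a median of −0.36. Itga9, which encodes an integrin subunit that binds tenascin-C, went from 3079, 3533 and 3863 at 0 h to 588, 670 and 613 (log2 change −2.48, SE 0.12, limma adjusted p = 2.4e-09). Of the 6 versican-cutting proteases, 5 were lower. Adamts15 fell by 4.91 on the log2 scale (limma adjusted p = 1.1e-07), and Adamts1 (−0.75), Adamts4 (−2.06), Adamts9 (−1.16) and Adamts20 (−2.06), named after their values were seen, were also called lower. Adamts5 was higher by 2.58 (limma adjusted p = 9.4e-05), from 247, 287 and 250 to 1807, 1801 and 1170. Hyal1, a hyaluronidase named after its values were seen, was below 0 h at 12 h (−2.12, limma adjusted p = 0.00065) and above it at 48 h (1.51, adjusted p = 0.00231).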
